A study of Arabidopsis thaliana with 24 samples.

Results

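The seed storage globulins of Arabidopsis thaliana described here are 8 genes of 33243 counted, taken by a list of gene identifiers. Of these, 4 are cruciferins, the legumin-type or 12S globulins: CRA1 (AT5G44120), CRU2 (AT1G03880), CRU3 (AT4G28520) and AT1G03890. The other 4 are vicilin-like proteins of the cupin fold: PAP85 (AT3G22640), AT2G28490, AT2G18540 and AT4G36700. All 8 passed the filter on low counts in seeds, and CRA1, CRU2, CRU3 and PAP85 passed it in flowers.

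Cruciferins are made as precursors on the endoplasmic reticulum of the maturing embryo, carried to protein storage vacuoles by sorting receptors and cleaved there by vacuolar processing enzymes into disulfide-linked chains. Together with the 2S albumins they form the protein reserve that a seedling breaks down on germination. Their transcription during seed maturation is known to be driven by B3 factors such as ABI3, which bind the RY element, and by bZIP factors, which bind elements with an ACGT core. The dry seed keeps part of the resulting RNA in store.

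Total RNA was sequenced from dry mature seeds, collected 8 weeks after plants began to flower, and from unopened flower buds, collected at 2 weeks. Each tissue had 4 genotypes in the Col-0 background with 3 biological replicates each, 24 libraries in all: WT, urt1-1, heso1-4 and heso1-4 urt1-1. The mutants are T-DNA insertion lines, each a single allele, in URT1 and HESO1, which encode enzymes that add uridines to RNA 3′ ends, and each sample pooled material of at least 5 soil-grown plants. The comparisons ask how steady-state RNA levels differ when either or both genes carry an insertion.

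URT1 RNA in seeds was 107.5 ± 3.06 CPM (counts scaled by library size to a common total; SD, n = 3) in WT and 2.63 ± 0.211 in urt1-1. HESO1 RNA was higher, not lower, under the label heso1-4: it was 0.452 ± 0.115 CPM in WT seeds and 181.9 ± 5.21 in seed libraries labelled heso1-4. Counts cover the whole gene span, so they do not show whether this RNA is intact, and HESO1 function was not tested. No direction below can thus be read as loss of HESO1, nor do these counts show that its function was kept. HESO1 RNA was also higher under this label in flowers (13.9 ± 0.473 CPM in WT against 805.0 ± 51.1 CPM). Libraries labelled heso1-4 urt1-1 held less HESO1 RNA than those labelled heso1-4: 49.1 ± 2.59 CPM in seeds and 65.1 ± 18.8 in flowers. HESO1 RNA was thus not held constant between the labels heso1-4 and heso1-4 urt1-1 in the comparisons below. Total counts per library were 19304121 to 38853305 in seeds and 23787015 to 39797391 in flowers. Summed flower bud markers (AP1, AP3, PI, AG and SEP3) were at most 4.10 CPM in seeds and at least 309.4 CPM in flowers, and 9 dry seed markers summed to at least 37731 CPM in seeds and at most 5.16 CPM in flowers, so the tissues matched their labels. One seed library stood apart: 2 loci (AT2G41310 and AT1G15405) took 18.6% of counts in the library labelled heso1-4 replicate 3 and 5.82% to 8.82% in the other seed libraries. Without that library, 0 members were called in each of the 8 comparisons of genotypes in seeds, as with it.

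The 200 bases upstream of the annotated start of 6 members are shown because the members differ there in the elements just named. They were read from the RefSeq assembly TAIR10.1 at the deposited TAIR10 coordinates, which were identical for all 8 genes, and end at the base before the annotated start. Capitals mark the RY element CATGCA, the ACGTG core and the TATA element TATAAA, each searched on both strands, so that a palindromic CACGTG counts as a match on each strand.
CRA1 (chr5:17758337-17758536, minus strand): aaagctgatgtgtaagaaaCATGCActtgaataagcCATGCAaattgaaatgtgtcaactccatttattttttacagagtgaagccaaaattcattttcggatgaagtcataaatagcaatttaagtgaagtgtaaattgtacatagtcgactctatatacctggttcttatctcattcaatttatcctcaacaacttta
CRU2 (chr1:985551-985750, plus strand): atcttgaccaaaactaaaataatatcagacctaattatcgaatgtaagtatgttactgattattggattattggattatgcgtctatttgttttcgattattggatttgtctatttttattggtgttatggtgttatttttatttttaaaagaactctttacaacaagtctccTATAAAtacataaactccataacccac
CRU3 (chr4:14087356-14087555, plus strand): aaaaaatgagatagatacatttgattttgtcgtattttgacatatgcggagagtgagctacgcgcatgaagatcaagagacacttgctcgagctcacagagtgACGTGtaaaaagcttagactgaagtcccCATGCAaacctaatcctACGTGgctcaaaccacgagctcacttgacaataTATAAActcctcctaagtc
PAP85 (chr3:8013942-8014141, minus strand): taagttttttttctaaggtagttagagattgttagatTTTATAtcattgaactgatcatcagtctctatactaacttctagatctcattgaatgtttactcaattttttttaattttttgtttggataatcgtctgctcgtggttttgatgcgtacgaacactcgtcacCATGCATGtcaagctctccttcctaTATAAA
AT2G28490 (chr2:12181013-12181212, minus strand): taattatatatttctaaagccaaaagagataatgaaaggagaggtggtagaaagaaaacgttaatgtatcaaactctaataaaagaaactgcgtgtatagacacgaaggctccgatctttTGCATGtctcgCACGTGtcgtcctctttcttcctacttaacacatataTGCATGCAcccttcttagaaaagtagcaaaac
AT2G18540 (chr2:8045034-8045233, minus strand): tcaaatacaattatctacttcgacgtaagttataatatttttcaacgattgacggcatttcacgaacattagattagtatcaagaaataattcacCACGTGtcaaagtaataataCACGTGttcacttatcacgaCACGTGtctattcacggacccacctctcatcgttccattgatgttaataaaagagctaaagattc

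The RY element was found in 6 of 8 member windows and in 6.98% of 33054 windows of the same length upstream of all annotated genes. It is absent from the windows of CRU2 and AT2G18540, and it occurs 3 times in AT2G28490, where a pair of matches overlap in TGCATGCA. The ACGTG core was found in 4 of 8 member windows (CRU3, AT2G28490, AT2G18540 and AT4G36700) and in 18.7% of all windows. AT2G18540 holds 3 copies of CACGTG, which count as 6 matches. RY and ACGTG stood together in 3 of 8 member windows (CRU3, AT2G28490 and AT4G36700) and in 1.48% of all windows. CRU2 was the member with neither of these elements, and TATAAA starts 27 bases before its annotated start. Counted on either strand, the TATAAA element was in 4 of 8 member windows and 39.8% of all windows. In AT4G36700 its only match was on the opposite strand, read as TTTATA. These matches describe the letters of each window and do not show that a factor binds there.

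CRU2 and AT1G03890 lie beside each other on the plus strand of chromosome 1, at 985751 to 988146 and 989198 to 991020, with 1051 bases between them. The other members are dispersed: CRA1 on chromosome 5 (17756238 to 17758336, minus strand), CRU3 on chromosome 4 (14087556 to 14089796, plus strand), PAP85 on chromosome 3 (8011724 to 8013941, minus strand), AT4G36700 on chromosome 4 (17298200 to 17300367, minus strand), and on chromosome 2 AT2G28490 (12178597 to 12181012) and AT2G18540 (8042096 to 8045033), both on the minus strand. No annotated gene overlaps any of them. Stretches of 50 bases, the read length, were not found elsewhere in the genome for 7 members, and for AT2G18540 7.96% of them were. Reads from those stretches may not be placed uniquely, and their share of its counts was not measured. Counts were taken over the whole gene span, of which exons made up 68.2% (CRU2) to 88.9% (CRA1).

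In dry seeds these 8 genes were among the main sources of RNA. They held 7.66% ± 1.43 (SD, n = 3) of all counts on genes in WT and 7.18% ± 1.42 in urt1-1. The share was 6.26% ± 1.17 where the label is heso1-4 and 8.34% ± 1.23 where it is heso1-4 urt1-1. The lowest library was labelled heso1-4 replicate 3, with 4.914% (exact 95% binomial interval 4.907% to 4.921%), and the highest was labelled heso1-4 urt1-1 replicate 3, with 9.481% (9.471% to 9.490%). These intervals cover counting error only, and the spread between replicates was far wider. These shares move with the 2 loci that took 18.6% of counts in the lowest library. On the TMM-scaled CPM used for all levels and tests, the members summed to 68554 CPM in that library, and the lowest library was urt1-1 replicate 1 with 49626 CPM. The group means were 77494 ± 20383 CPM (SD, n = 3) in WT, 68495 ± 20175 in urt1-1, 68754 ± 3038 for the label heso1-4 and 80232 ± 14606 for heso1-4 urt1-1. The cruciferins held 5.61% ± 1.33 of counts in WT seeds and the vicilin-like genes 2.05% ± 0.126.

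Ordered by level per kilobase (kb) of gene span in WT seeds, CRA1 stood first with 11928 ± 3077 CPM per kb (SD, n = 3), and CRU3 followed with 11850 ± 4856 CPM per kb. PAP85, the most abundant vicilin-like gene, came next with 8636 ± 1091 CPM per kb. The WT libraries of CRA1 overlapped those of CRU3, and those of CRU3 overlapped those of PAP85, so the order of these neighbours is not beyond their spread. Per kb of summed exon length CRU3 and CRA1 exchanged places, and the other ranks stayed as they were.

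CRU2 reached 2077 ± 264 CPM per kb, below every WT library of PAP85. AT2G28490 followed with 431.1 ± 120 CPM per kb, below every library of CRU2. AT4G36700 (166.5 ± 32.5) and AT1G03890 (145.5 ± 55.5) overlapped each other. AT2G18540 was lowest, with 35.65 ± 7.40 CPM per kb, below every library of AT1G03890. CRA1 and CRU3 thus made up 46.4% ± 2.81 and 44.7% ± 4.01 of the cruciferin level per kb in WT seeds, CRU2 8.34% ± 1.88 and AT1G03890 0.552% ± 0.0344. Among the vicilin-like genes PAP85 alone made up 93.2% ± 0.900.

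**Figure D1:**
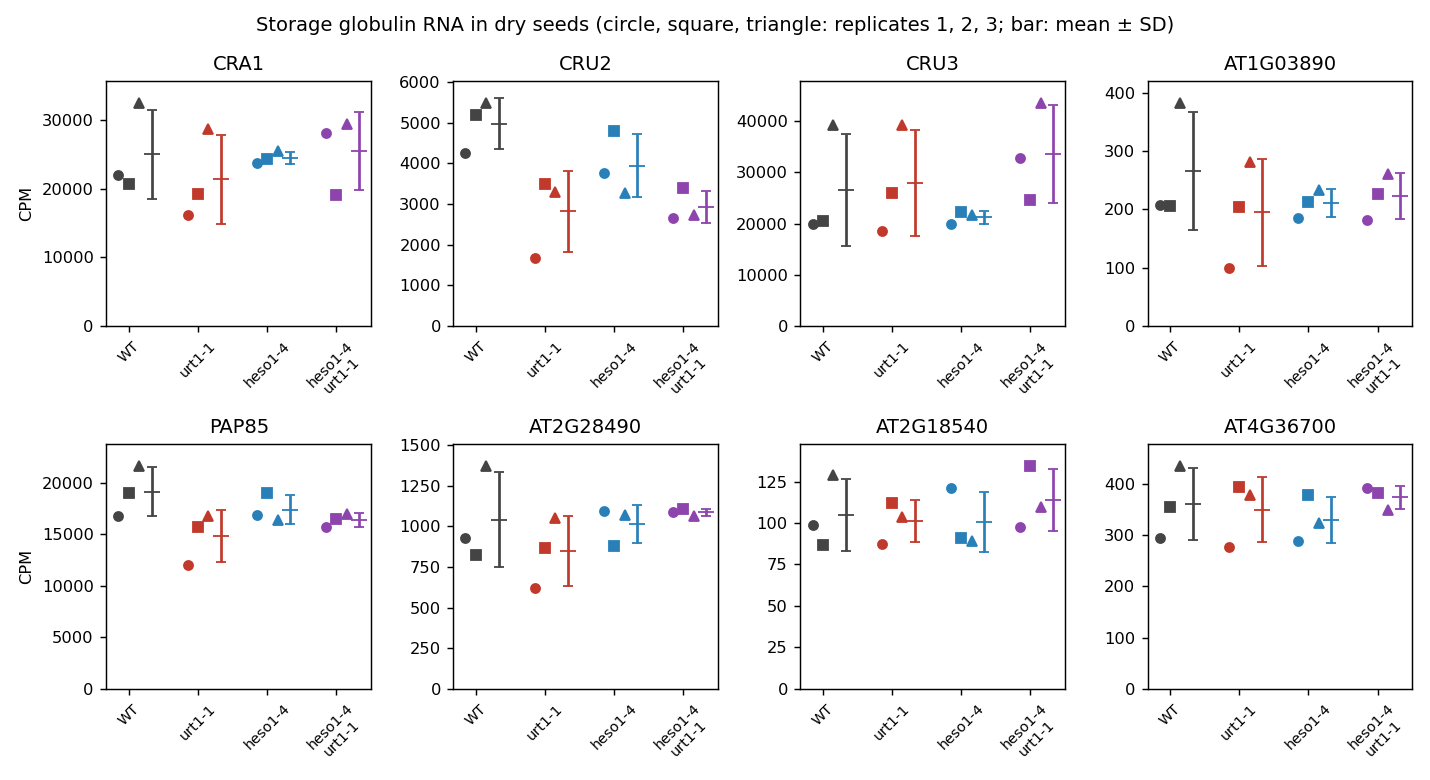
Level of each storage globulin gene in the 12 dry seed libraries, in CPM on a linear axis from 0, by genotype label. Points are single libraries (circle, square and triangle for replicates 1, 2 and 3) and the bar beside them is the mean ± SD, and CRU2 is the member in which 5 of 6 libraries without urt1-1 lie above all 6 libraries with it.

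The replicates differed in how much storage globulin RNA they held. CRA1 was at 22019, 20639 and 32453 CPM in WT replicates 1, 2 and 3, and CRU3 at 19965, 20584 and 39117 CPM in the same libraries. Replicate 3 was also the highest for CRA1 and CRU3 in urt1-1 (28681 and 39144 CPM) and among seeds labelled heso1-4 urt1-1 (29479 and 43436 CPM). In libraries labelled heso1-4 replicate 3 was the highest for CRA1 (23704, 24306 and 25492 CPM) and not for CRU3 (19839, 22266 and 21687 CPM), and both ranges were narrow. The smallest spread within groups was that of PAP85 (SD 0.17 on the log2 CPM scale) and the largest that of AT1G03890 (0.488).

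No member changed past the threshold between urt1-1 and WT seeds. By edgeR's quasi-likelihood test with an adjusted p (Benjamini-Hochberg over 17939 genes) under 0.05, 0 of 8 members were called, where 0.0279% of all genes tested were. DESeq2 also called 0, and 1 member, CRU2, had an unadjusted p under 0.05. The members' median log2 fold change was -0.26, beside -0.0055 over all genes, with 7 of 8 below 0. The signs of CRA1, CRU3, AT2G18540 and AT4G36700 turned when single libraries were left out. In whole-seed RNA, fewer cells of a type and less RNA per cell cannot be told apart, here and in all comparisons that follow.

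CRU2 was at 4266, 5187 and 5474 CPM in the 3 WT seed libraries and at 1676, 3495 and 3300 CPM in the 3 urt1-1 libraries. Every urt1-1 library was below every WT library. The group means were 4976 ± 631 and 2824 ± 998 CPM (SD, n = 3), a log2 fold change of -0.82 ± 0.24 (SE; 95% interval -1.33 to -0.30) with an edgeR adjusted p of 0.551. PAP85 was at 16796, 19034 and 21631 CPM in WT and at 11992, 15717 and 16820 CPM in urt1-1, so the groups overlapped by a narrow margin. Between same-numbered libraries PAP85 was lower in urt1-1 in 3 of 3 pairs, by log2 differences of -0.486, -0.276 and -0.363. CRU2, CRA1 and AT1G03890 were also lower in 3 of 3 pairs, and the fit with these numbers as a block called none of them (0 of 8 members). The fitted log2 fold change of PAP85 was -0.37 ± 0.19 (interval -0.77 to 0.034, edgeR adjusted p = 0.744). For CRU3 the log2 fold change was 0.073 ± 0.31 (interval -0.60 to 0.74), and for CRA1 -0.23 ± 0.26 (interval -0.77 to 0.32).

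Seed libraries labelled heso1-4 gave no call against WT either: 0 of 8 members by edgeR and by DESeq2, 0 at an unadjusted p under 0.05, with 0.0111% of all genes called. All 8 members had log2 fold changes just below 0, from -0.34 (CRU2, ± 0.24, 95% interval -0.85 to 0.18) to -0.031 (CRA1, ± 0.26, interval -0.58 to 0.52). These signs rested on WT replicate 3, the WT library with the highest level of all 8 members: without it, 6 of 8 values were above 0, up to 0.21 for AT2G28490. CRU2 itself was at 3754, 4790.0 and 3276 CPM in the libraries labelled heso1-4, between the WT and urt1-1 groups on average and overlapping both.

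In seed libraries labelled heso1-4 urt1-1 against WT, 0 of 8 members were called by edgeR and by DESeq2, against 0.0557% of all genes, and 1, again CRU2, had an unadjusted p under 0.05. The members' median log2 fold change was 0.039, beside -0.0061 over all genes. CRU2 was at 2660.0, 3393 and 2727 CPM, every library below every WT library, and its log2 fold change was -0.77 ± 0.24 (95% interval -1.28 to -0.25, edgeR adjusted p = 0.409). CRU3 was at 32845, 24491 and 43436 CPM, overlapping WT, with a log2 fold change of 0.34 ± 0.31 (interval -0.33 to 1.01). CRA1 was at 28086, 19052 and 29479 CPM, also overlapping WT (0.029 ± 0.26, interval -0.52 to 0.58). This comparison and the preceding ones share the WT libraries, so their values are not independent.

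**Figure D2:**
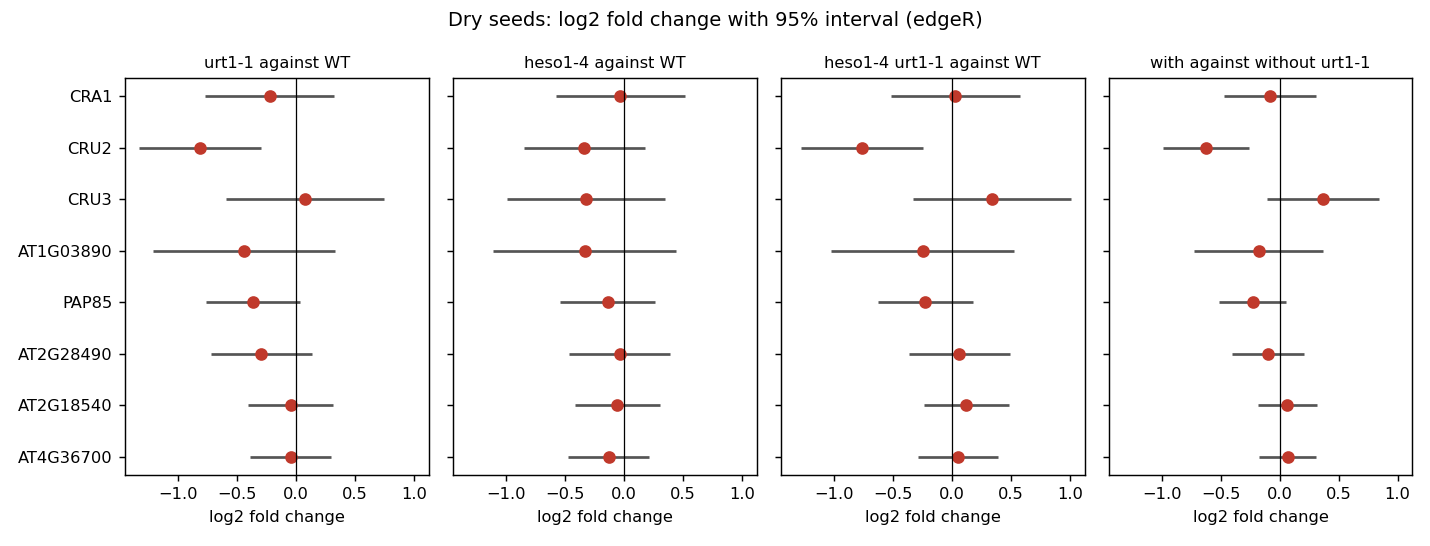
Log2 fold change of each member in dry seeds (points) with its 95% interval (lines) from edgeR, in 4 comparisons named by genotype label, with a vertical line at 0. CRU2 is the member whose interval lies below 0 in the comparisons that involve urt1-1, from -0.82 for urt1-1 against WT to -0.62 for 6 libraries with urt1-1 against 6 without.

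Adding one label to the other moved no member past the threshold. Between libraries labelled heso1-4 urt1-1 and urt1-1, 0 of 8 members were called (0.039% of all genes), as with DESeq2, and none of the unadjusted p-values was under 0.05 (count 0). CRU2 differed there by 0.052 ± 0.24 on the log2 scale (95% interval -0.46 to 0.57). Between libraries labelled heso1-4 urt1-1 and heso1-4, 0 of 8 were called (0.0725% of all genes), with 0 at an unadjusted p under 0.05 and 0 by DESeq2. In this comparison CRU3 had a log2 fold change of 0.66 ± 0.32 (interval -0.013 to 1.33, edgeR adjusted p = 0.479) and CRU2 of -0.43 ± 0.24 (interval -0.94 to 0.086, edgeR adjusted p = 0.535). CRU3 and CRU2 thus lay on opposite sides of 0, neither past the threshold.

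Pooling the 6 seed libraries that carry urt1-1 against the 6 that do not, edgeR without a replicate block again called 0 of 8 members. It called 0.256% of 17939 genes. DESeq2 called 1 of 8, CRU2, where it called 2.75% of 16497 genes. The 6 libraries with urt1-1 held 2875 ± 684 CPM of CRU2 (lowest 1676, median 3013, highest 3495) and the 6 without held 4458 ± 849 CPM (lowest 3276, median 4528, highest 5474). The groups overlapped only through the library labelled heso1-4 replicate 3, at 3276 CPM, which lay below 3 of the libraries with urt1-1. The log2 fold change was -0.62 ± 0.17 (95% interval -0.99 to -0.26), with an adjusted p of 0.122 by edgeR and 0.00832 by DESeq2. Leaving out any 1 of the 12 libraries gave -0.71 to -0.49 and edgeR adjusted p of 0.089 to 0.252. Without the library labelled heso1-4 replicate 3 the value was -0.68 (edgeR adjusted p = 0.130). With all 12 libraries, the edgeR fit with the replicate number as a block called CRU2 (-0.64 ± 0.125, adjusted p = 0.010). That fit called 1128 of 17939 genes. Same-numbered seed libraries all correlated positively, from 0.0659 (urt1-1 and heso1-4, replicate 1) to 0.507 (WT and urt1-1, replicate 3). The labels do not state what the number marks, so the call of CRU2 depends on whether it is taken as a block.

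The other members in this pooled comparison lay between -0.23 ± 0.13 (PAP85, 95% interval -0.51 to 0.056) and 0.37 ± 0.22 (CRU3, interval -0.11 to 0.84). AT2G18540 and AT4G36700 were each at 0.066, with intervals of -0.19 to 0.32 and -0.17 to 0.31. For the label heso1-4 (6 libraries with, 6 without), 0 of 8 members were called by edgeR and by DESeq2 and 0 had an unadjusted p under 0.05 (0.0167% of all genes called), and the values ran from -0.14 (CRU2) to 0.16 (AT2G28490). The departure from additivity of the insertions, which reuses the same WT libraries, gave 0 called members by edgeR and by DESeq2 and 0 at an unadjusted p under 0.05 (0.0111% of all genes called), with estimates of 0.23 to 0.59 and standard errors of 0.23 to 0.49.

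Within each library, CRU2 can be set against the other main cruciferins. The ratio also moves with CRU3: WT replicate 3 had the highest CRU2 level of the WT libraries and the lowest ratio, with CRU3 at 39117 CPM. This ratio was chosen after the values were seen and is given as a description without a test. Per kb of span, CRU2 over CRU3 was 0.200, 0.236 and 0.131 in WT replicates 1, 2 and 3, and 0.177, 0.201 and 0.141 in libraries labelled heso1-4. It was 0.0842, 0.125 and 0.0788 in urt1-1. The values were 0.0757, 0.130 and 0.0587 for heso1-4 urt1-1. The 6 libraries without urt1-1 (0.131 to 0.236) lay above the 6 with it (0.0587 to 0.130), barely so at the edge. CRU2 over CRA1 ran from 0.113 to 0.220 without and from 0.0810 to 0.159 with urt1-1, and these ranges overlapped. Replicate 2 had the highest CRU2 over CRU3 ratio in all 4 genotypes.

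**Figure D3:**
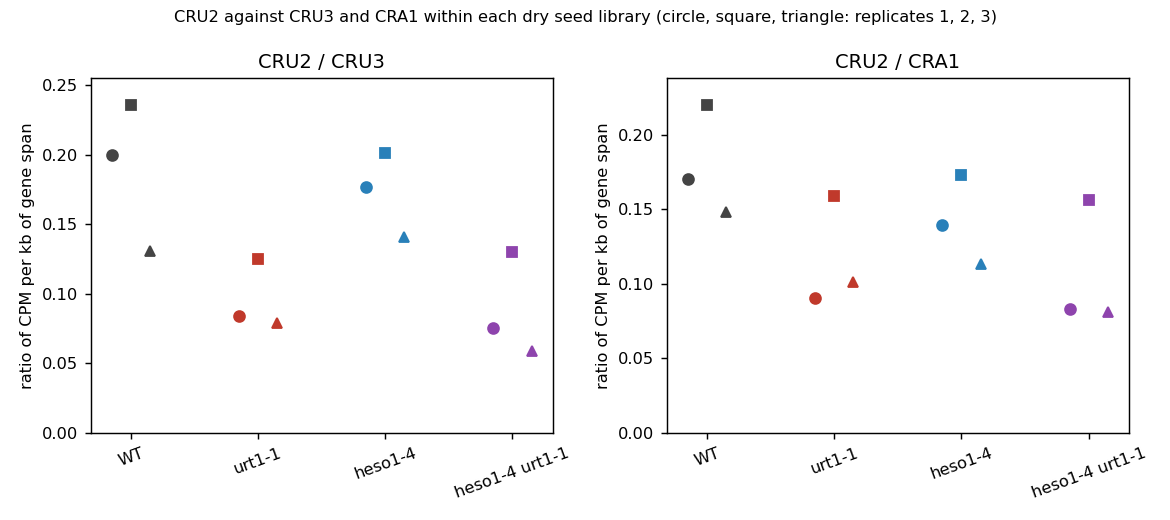
Ratio of CRU2 to CRU3 (left) and of CRU2 to CRA1 (right) in each of the 12 dry seed libraries, from CPM per kb of gene span on linear axes from 0, by genotype label. Points are single libraries (circle, square and triangle for replicates 1, 2 and 3), and the ratio to CRU3 is 0.131 or more in the 6 libraries without urt1-1 and 0.130 or less in the 6 with it.

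The same values can be read as the composition of the cruciferin RNA. CRU2 made up 4.97% ± 1.35 (SD, n = 3) of the cruciferin level per kb in urt1-1. The share was 4.55% ± 1.77 where both alleles are on the label and 7.17% ± 1.30 where heso1-4 stands alone. CRU3 made up 51.6% ± 2.07, 52.2% ± 3.13 and 41.4% ± 0.709 in these groups. PAP85 held 91.8% to 93.2% of the vicilin-like level per kb in all 4 group means. These shares come from the same CPM values as the tests above and add no independent evidence.

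The other genes of storage protein synthesis showed no call in the 8 genotype comparisons in seeds. All 5 genes of the 2S albumins, the smaller storage proteins, were measured, and 0 rose and 0 fell past the threshold. Their median log2 fold change between libraries labelled heso1-4 urt1-1 and WT was 0.14, with SESA1 at 0.55 ± 0.32 (edgeR adjusted p = 0.659), SESA4 at -0.23 ± 0.37 (0.892) and SESA2 at 0.28 ± 0.50 (0.912). Of 13 genes for sorting and processing, 13 were measured and 0 were called in either direction, with a median of 0.045. PDIL1-1, a protein disulfide isomerase of the endoplasmic reticulum, was at 0.46 ± 0.22 (edgeR adjusted p = 0.579). ALPHA-VPE, a vacuolar processing enzyme, was at -0.74 ± 0.43 (0.655), and VSR4, a vacuolar sorting receptor, at 0.14 ± 0.083 (0.664). In libraries with against without urt1-1, 2 of these 13 genes had an unadjusted edgeR p under 0.05, beside 2801 of all 17939 genes. They were PDIL1-1 at 0.52 ± 0.15 (edgeR adjusted p = 0.149) and VSR4 at 0.19 ± 0.059 (0.148). Between libraries labelled heso1-4 urt1-1 and heso1-4, 3 of 13 did, beside 1906 of all genes.

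Of 14 transcriptional regulators of storage protein genes, 12 were measured in seeds and 0 were called in either direction against WT, with a median of -0.094 (log2) for heso1-4 urt1-1 and 3 of 12 at an unadjusted p under 0.05, beside 1546 of all 17939 genes. Those 3 were ABI3 and the bZIP factors BZIP53 and BZIP10. ABI3 reached 172.5 ± 13.4 CPM (mean ± SD of 3 libraries) in WT, 132.8 ± 13.5 in urt1-1 and 138.9 ± 6.27 in seeds labelled heso1-4 urt1-1, a log2 fold change of -0.31 ± 0.12 in the last (edgeR adjusted p = 0.496). BZIP53 was at 49.9 ± 14.6, 33.2 ± 10.8 and 30.8 ± 4.97 CPM in the same groups (-0.70 ± 0.24, edgeR adjusted p = 0.470). BZIP10 was at 43.4 ± 2.37, 36.0 ± 1.69 and 36.7 ± 1.52 CPM (-0.24 ± 0.092, edgeR adjusted p = 0.497). In libraries labelled heso1-4, BZIP10 was at 36.8 ± 2.55 CPM, ABI3 at 149.8 ± 21.9 CPM and BZIP53 at 48.9 ± 7.78 CPM. With against without urt1-1, 4 of 12 regulators had an unadjusted p under 0.05, beside 2801 of all 17939 genes, and they did not all lie on the same side. BZIP53 was at -0.63 ± 0.17 (edgeR adjusted p = 0.135) and ABI3 at -0.24 ± 0.084 (0.189). On the other side, ABI5, another bZIP factor, was at 0.33 ± 0.10 (edgeR adjusted p = 0.156) and HSI2, a B3 domain repressor, at 0.23 ± 0.10 (0.303). These last 2 were named after their values were seen.

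Over the 12 seed libraries, the summed members' log2 CPM followed CRA1 (Pearson's r = 0.930) and CRU3 (0.908) which dominate the sum, and less closely CRU2 (0.365) or AT2G18540 (0.374). Of 8440 other genes with a mean of at least 10 CPM, the 5 most alike were AT3G15670 (r = 0.951), CNGC6 (0.947), NET3A (0.941), the 2S albumin SESA3 (0.933) and AT5G05140 (0.929). Without the 2 libraries farthest from the median, these 5 gave r of 0.887 to 0.934, and Spearman's rho over all 12 was 0.818 to 0.916. SESA4 was the 2S albumin least like the members (r = 0.146). These correlations describe libraries that share genotype and depth differences and carry no test.

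In unopened flower buds the storage globulins were close to absent. They held 0.0005533% of counts (188 counts; exact 95% binomial interval 0.000477% to 0.0006383%) in the lowest library, labelled heso1-4 replicate 2, and 0.001106% (345 counts; interval 0.0009926% to 0.001229%) in the highest, urt1-1 replicate 3. CRA1 had 35 to 105 counts per library, CRU3 40 to 129 and PAP85 28 to 126. CRU2 had 2 to 15 counts. AT1G03890 was at 0 in 9 of 12 flower libraries, AT2G18540 in 7, and AT2G28490 and AT4G36700 in 3 each.

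The 4 members that passed the filter in flowers were higher in WT seeds than in WT flowers by edgeR (adjusted p from 1.08e-16 to 1.75e-14), where 32.9% of 23557 genes were higher in seed. The other 4 entered the fit over both tissues only through the seed libraries, so they had to be higher there, and their values are given as a description. The log2 fold change was 14.21 ± 0.46 for CRA1 (32798 against 1.75 CPM, both scaled over all 24 libraries) and 14.50 ± 0.59 for CRU3. For CRU2 it was 16.31 ± 0.44, from only 10 counts over the 3 WT flower libraries. PAP85 stood at 13.73 ± 0.57. Of the members described only, AT2G28490 stood at 13.59 ± 0.52 and AT4G36700 at 13.20 ± 0.49. AT1G03890 and AT2G18540 had 0 counts in all 3 WT flower libraries, so a floor of 3 counts over the group (0.0233 CPM) was used: they were at least 14882-fold and at least 5863-fold higher in seed. The median over all genes was -0.56, and seed and flower RNA were extracted by different methods, so a tissue effect cannot be told apart from one of extraction.

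Relative to its own seed level, flower RNA was alike for most members. The mean flower level over 12 libraries was 0.00366% of the mean seed level for CRU2, 0.00463% for AT1G03890, 0.00514% for CRU3, 0.00519% for CRA1 and 0.00588% for AT2G28490. It was 0.00861% for PAP85, 0.0190% for AT2G18540 (12 counts in all flower libraries) and 0.0263% for AT4G36700 (60 counts). The 9 other dry seed genes, 2S albumins, oleosins and EM proteins, lay between 0.0039% (EM6) and 0.0221% (SESA4), with OLEO1 at 0.00544%, SESA5 at 0.0051% and SESA3 at 0.00479%. The source of these flower counts was not tested.

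**Figure D4:**
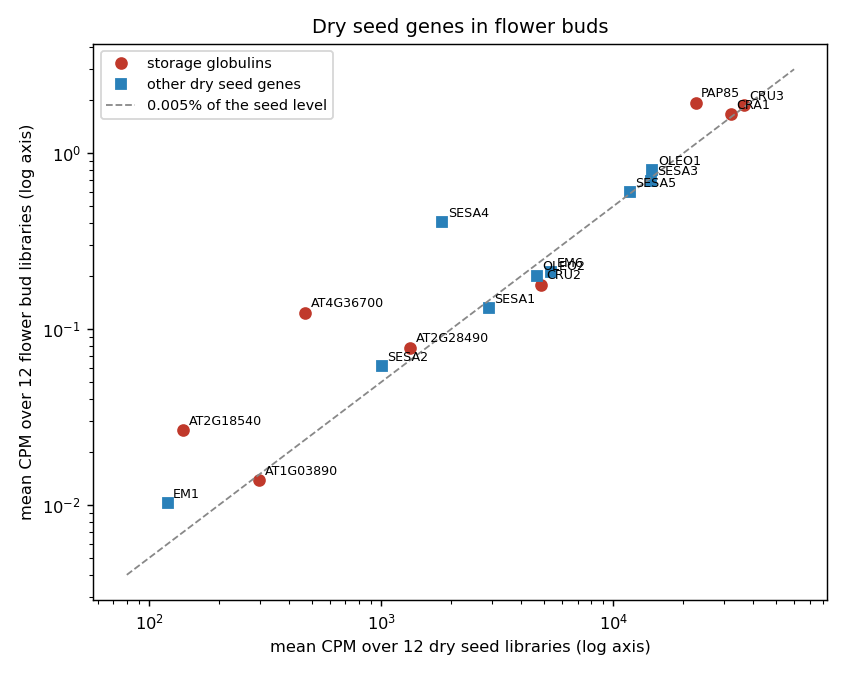
Mean CPM over 12 flower bud libraries against mean CPM over 12 dry seed libraries, both on log axes, for the 8 storage globulin genes (circles) and 9 other dry seed genes (squares), scaled over all 24 libraries. The dashed line marks a flower level of 0.005% of the seed level. CRA1 (0.00519%) and CRU3 (0.00514%) lie close to it, and AT4G36700 (0.0263%), SESA4 (0.0221%) and AT2G18540 (0.0190%) lie above it.

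Between genotypes in flowers, 0 of the 4 members tested were called in any of 5 comparisons by edgeR or by DESeq2, which gave an adjusted p to 8, 3, 0, 8 and 5 members in the order that follows. The share of all 22841 genes called was 0.00876% for urt1-1 against WT, 0.00876% for the label heso1-4 against WT and 0.0131% for heso1-4 urt1-1 against WT. It was 0.0131% for heso1-4 urt1-1 against urt1-1 and 0.0131% for heso1-4 urt1-1 against heso1-4. CRU2 was the 1 member with an unadjusted p under 0.05, in urt1-1 and in heso1-4 urt1-1 against WT, and no member had one in the other comparisons. It had 6, 2 and 2 counts in WT flowers and 9, 10 and 10 in urt1-1. Flower libraries labelled heso1-4 had 6 each, and those labelled heso1-4 urt1-1 had 6, 9 and 15. Its log2 fold change against WT was 1.72 ± 0.58 for urt1-1 and 1.66 ± 0.58 for heso1-4 urt1-1, each with an edgeR adjusted p of 1.00, on a total of 10 counts in WT. CRU2 passed the filter on low counts in flowers only through libraries with urt1-1, where its counts were highest. Its flower values were thus selected for being higher with urt1-1 and are given as a description.

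The genotype effect in seeds minus that in flowers could be compared for CRA1, CRU2, CRU3 and PAP85, the 4 members that passed the filter in both tissues. Of these, 0 were called by edgeR or by DESeq2 for urt1-1 (0% of 23557 genes called), for the label heso1-4 (0.00425%) or for heso1-4 urt1-1 (0.00425%), and 1, 0 and 1 had an unadjusted p under 0.05. That member was CRU2, with a difference of -2.46 ± 0.58 for urt1-1 (95% interval -3.67 to -1.26, edgeR adjusted p = 0.624) and -2.38 ± 0.58 for heso1-4 urt1-1 (interval -3.58 to -1.18, edgeR adjusted p = 0.609). Both rest on the 10 counts of CRU2 in WT flowers. CRU2 passed the filter in flowers only through libraries with urt1-1, where its counts were higher, so both differences are given as a description. The other 4 members entered this fit only through seeds and are described by their flower counts. AT4G36700 had 0, 2 and 4 counts in WT flowers and 14, 8 and 8 in those labelled heso1-4 urt1-1, and AT1G03890 had none in WT and urt1-1 flowers.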

How the data were processed

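Total RNA of 24 libraries was measured as strand-specific paired reads of 50 bases, from 500 ng of RNA per library, per the labels' protocols. The authors deposited raw counts per gene, not normalized, 1 table per tissue. Per the file headers, featureCounts 2.0.6 counted over the whole gene span on the reverse strand, introns included, and the submitters' processing notes name the build TAIR10 and the tools bcl2fastq, HISAT2 2.2.1, DESeq2 1.38.3 in R 4.2.2 and the same featureCounts. The counted unit, single read or pair, is not given in these sources. Of counts from 1 to 20, 66.7% to 77.2% per library were even.

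Here edgeR 4.0.16 in R 4.3.3 was fitted to all genes (filterByExpr with minimum count 10 and minimum total 15, TMM, robust quasi-likelihood, prior count 0.125, 1 mean per group), on 17939 genes in seeds, 22841 in flowers and 23557 over both tissues. A gene was called at a Benjamini-Hochberg adjusted p under 0.05. CPM use TMM-scaled library sizes, so a flower CPM scaled within flowers differs from one scaled over both tissues. Intervals use the model's degrees of freedom per gene. The alternatives were DESeq2 1.42.0, DESeq2 size factors, no filter, halved counts, only the groups compared in the fit, a table without organelle genes and 2 dominating loci, scaling without storage protein genes, summed exon length, the replicate number as a block, and each library left out. The edgeR fit in seeds was checked on simulated counts with known changes in urt1-1 against WT, drawn without a replicate effect. The other fits were not checked in this way. Members, lists and tests were chosen with earlier results of these data known. All 8 members are named, with up to 3 genes per list by smallest p in seed libraries labelled heso1-4 urt1-1 against WT, and the 5 genes most correlated with the members' sum (pseudocount 0.5 CPM, mean of at least 10 CPM). The seed lists for 2S albumins, transcriptional regulators and sorting or processing are from general knowledge. Marker lists were also read: tapetum markers summed to at most 0.256 CPM in seeds, seed coat markers to at most 2.20, leaf and green tissue markers to at most 49.8, and endosperm markers, nearly all EPR1, to 1228 to 4496 CPM.

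Replicate numbers were taken from the labels, with no statement of what they mark. Same-numbered seed libraries deviated together, with correlations over 0.1 in every replicate, for urt1-1 and WT (0.396, 0.203 and 0.507). This also held for heso1-4 urt1-1 and urt1-1 (0.105, 0.214 and 0.194) and for heso1-4 urt1-1 and heso1-4 (0.117, 0.158 and 0.180). The other pairs of genotypes correlated positively too and fell under 0.1 only in replicate 1. Values there were 0.0883 for WT and heso1-4, 0.0746 for WT and heso1-4 urt1-1, and 0.0659 for urt1-1 and heso1-4. Flower correlations reached 0.695, and only WT and heso1-4 urt1-1 fell under 0.1 (0.0597 in replicate 2). The labels call the replicates biological.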

Additional observations from a re-analysis of the deposited data

How the results depend on the processing

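Between genotypes the count of called members was 0 as reported, and a count of 0 says little about stability. It moved in 1 comparison, seeds with against without urt1-1, where DESeq2 and the fit with the replicate number as a replicate block each called 1 member in place of 0. It was CRU2 in both, at -0.63 with DESeq2 (adjusted p = 0.00832) and at -0.64 in the edgeR replicate block fit (adjusted p = 0.010), while edgeR with other scalings, without a filter or with halved counts gave adjusted p of 0.109 to 0.118. Same-numbered libraries in that comparison all correlated positively, and the labels do not state what the number marks. The lowest correlations were 0.0659 for urt1-1 and heso1-4 and 0.0746 for WT and heso1-4 urt1-1, both in replicate 1. The block changed no other call. Over all genes, that comparison gave 46 calls, against 453 with DESeq2, 1128 with the block, 131 without a filter and 11 to 161 with a library left out; the cause was not tested. Signs of members near 0 turned as libraries were left out (lowest to highest log2 fold change). In urt1-1 against WT the ranges were -0.49 to 0.0059 for CRA1, -0.25 to 0.46 for CRU3, -0.17 to 0.13 for AT2G18540 and -0.17 to 0.11 for AT4G36700. For the label heso1-4 against WT they were -0.15 to 0.20 for CRA1, -0.48 to 0.068 for CRU3, -0.48 to 0.025 for AT1G03890, -0.18 to 0.21 for AT2G28490, -0.21 to 0.12 for AT2G18540 and -0.26 to 0.022 for AT4G36700, and CRA1 was at 0.0058 with the replicate block. For heso1-4 urt1-1 against WT they were -0.090 to 0.26 for CRA1, -0.40 to 0.11 for AT1G03890, -0.079 to 0.31 for AT2G28490, -0.0066 to 0.30 for AT2G18540 and -0.075 to 0.21 for AT4G36700. With against without urt1-1 they were -0.22 to 0.034 for CRA1, -0.36 to 0.0023 for AT1G03890 and -0.19 to 0.028 for AT2G28490. Flower counts were 0 to 129 per member and library.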
